A study of Mus musculus with 30 samples.

Results

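The response described here is that of TRα1PV macrophages to lipopolysaccharide (LPS) together with interferon-γ. It rests on 10 of the 30 libraries of the series, picked by their titles: 5 from TRα1PV cells given both agents (M1) and 5 from unstimulated TRα1PV cells (M0), compared across all genes. The macrophages were grown from the bone marrow of mice that carry TRα1PV, over 7 days in culture medium with 15 or 20% of medium conditioned by L929 fibroblasts. For M1 the cells received LPS and interferon-γ at 20 ng/mL each, and M0 cells received neither. TRα1PV is a mutant of thyroid hormone receptor α1 that has lost hormone binding and represses the genes that the normal receptor regulates. The labels do not give the number of mutant alleles, the strain, the age or sex of the mice, or the time between stimulation and harvest. PolyA RNA was sequenced, with 5 biological replicates per group. The common fit that sets the filter, the scaling and the spread also held TRα1PV macrophages given interleukin-4 at 20 ng/mL (M2). It further held wild-type (WT) macrophages in the same M1, M0 and M2 states, with 5 libraries in each group. The WT M2 libraries enter no comparison, and the other added groups are compared only in the tests of difference at the end.

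LPS, a cell-wall component of Gram-negative bacteria, binds CD14 and the TLR4 and MD-2 complex. The adaptor MyD88 then leads to NF-κB and AP-1, and the adaptor TRIF to IRF3 and the production of interferon-β. Interferon-γ acts through the kinases JAK1 and JAK2 on factors that bind the palindromic GAS element, and interferon-β acts through a complex with IRF9 that binds the interferon-stimulated response element (ISRE). Macrophages that receive LPS and interferon-γ together are known for nitric oxide production, inflammatory cytokines, antigen presentation and a shift to glycolysis.

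The stimulation changed most of the measured transcriptome. Of 15686 genes tested, 12658 (80.7%) were called at an adjusted p under 0.05 in edgeR's quasi-likelihood test, with 6275 (40.0%) higher and 6383 (40.7%) lower in M1. Under a stricter rule that asks for more than a 2-fold change (edgeR's glmTreat), 2714 genes (17.3%) were higher and 3028 (19.3%) lower. The called increases reached further than the decreases: 520 genes rose more than 16-fold and 413 fell more than 16-fold, and 70 rose and 26 fell more than 256-fold. In 66 genes the level, in counts per 1000000 gene reads (CPM, scaled with TMM factors), lay at 10 or more in the 5 M1 libraries and under 1 in the 5 M0 libraries, and in 44 genes it was the other way round. Genes beyond 2-fold higher took 45.0 to 46.6% of the gene reads in M1 libraries, against 12.1 to 13.2% in M0 libraries. Genes beyond 2-fold lower took 3.41 to 3.54% in M1 libraries, against 21.5 to 23.3% in M0 libraries. The 5 libraries of M1 and of M0 did not overlap in 10995 genes (70.1%). In bulk RNA, fewer cells of a type and less RNA per cell cannot be told apart.

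The libraries held 30667000 to 41544000 gene reads in M1, against 30925000 to 59086000 in M0 (5 digits kept). Reads outside genes made up 10.2 ± 0.762% in M1 and 13 ± 1.04% in M0 of the reads in genes, outside genes or ambiguous between genes. Mitochondrially encoded reads made up 0.705 ± 0.201% in M1 and 2.08 ± 0.510% in M0 of gene reads. The 20 genes with most reads took 17.5 ± 0.641% in M1 and 15.9 ± 0.463% in M0. The number of genes at 1 CPM or more was 11390 ± 80.5 in M1 and 12170 ± 61.0 in M0 (SD, n = 5 each). For this number CPM was taken on total gene reads without TMM factors. On the TMM scale the same cut is stricter in M1 than in M0. The groups did not overlap in any of these 4 measures (exact permutation test, p = 0.007937 each, the smallest that 5 against 5 allows; adjusted p = 0.007937), and their part in the gene-level results was not tested. Every replicate pair within a group differed beyond counting noise. The levels are relative: scaling to total gene counts alone, without TMM factors, shifts the median of all genes by -0.505 on the log2 scale and gives 4042 genes higher and 8958 lower. All changes below are therefore relative to the bulk of the genes, whose median log2 fold change was -0.02, with 25% of the genes under -0.99 and 25% over 0.82.

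**Figure D1:**
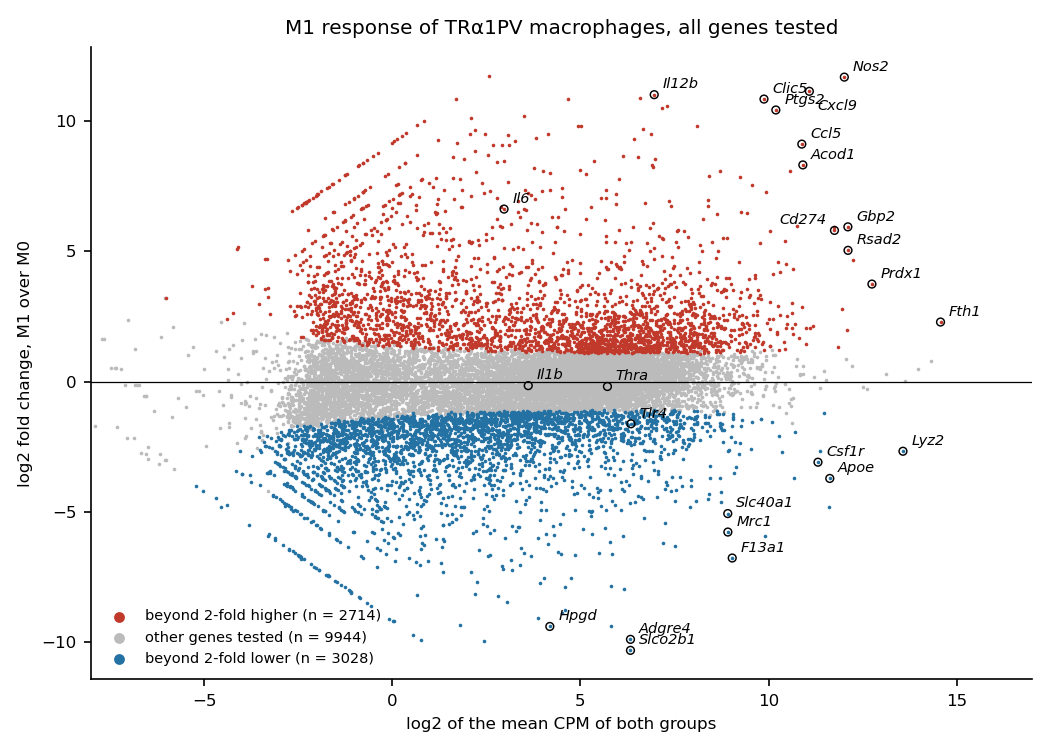
Log2 fold change of each of the 15686 tested genes in TRα1PV macrophages, M1 over M0 (vertical axis). The horizontal axis is the log2 of the mean CPM of both groups. Genes beyond 2-fold (2714 higher, 3028 lower) are coloured, the other genes are grey, and labels mark genes described in the text, from Nos2 at 11.70 to Slco2b1 at -10.33.

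Among genes of at least 50 CPM in M1, the largest increase was that of Nos2 (ENSMUSG00000020826), which encodes the inducible nitric oxide synthase. It had 9332, 7298, 8685, 7282 and 8721 CPM in the M1 libraries, against 2.59, 2.36, 2.6, 2.61 and 2.19 CPM in the M0 libraries, a log2 fold change of 11.70 ± 0.49 (standard error; edgeR adjusted p = 1.18e-19). Every M1 library was above every M0 library. Cxcl9 (ENSMUSG00000029417), a chemokine that interferon-γ induces and that draws T cells through CXCR3, had 4133, 4045, 4310.1, 4211 and 4997 CPM in the M1 libraries, against 1.87, 1.55, 2.21, 2.36 and 1.3 CPM in the M0 libraries (11.15 ± 0.38). Il12b (ENSMUSG00000004296), the p40 subunit of interleukin-12, had 158, 138, 208, 209 and 532 CPM in the M1 libraries, against 0.180, 0.183, 0.192, 0.0159 and 0 CPM in the M0 libraries (11.02 ± 0.44). Both genes were low in each M0 library and far above that level in each M1 library.

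The other genes among the 12 largest increases from at least 50 CPM in M1 were of several kinds. Ptgs2, the inducible cyclooxygenase, stood at 2339.9 ± 651 CPM in M1 and 1.65 ± 0.336 CPM in M0 (10.44 ± 0.23). Cxcl11, another CXCR3 ligand, rose by 10.49 ± 0.22, and Ccr7, the receptor that guides cells to lymph nodes, by 9.82 ± 0.34. Gbp10, a guanylate-binding protein, rose by 9.80 ± 0.25, and Serpina3g, an intracellular protease inhibitor, by 9.71 ± 0.21. The rest were Upp1, the uridine phosphorylase (10.90 ± 0.26), Clic5, a chloride intracellular channel protein (10.85 ± 0.24, at 1881 ± 166 CPM in M1 and 1.01 ± 0.115 CPM in M0), Coch, the secreted protein cochlin (10.85 ± 0.35), and Cnn3, the actin-binding calponin 3 (10.60 ± 0.19).

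Among the decreases from at least 50 CPM in M0, Slco2b1 (ENSMUSG00000030737), a carrier of organic anions, had 0.108, 0.157, 0.0358, 0.264 and 0.0617 CPM in the M1 libraries, against 169.6, 197, 165, 115 and 158 CPM in the M0 libraries, a log2 fold change of -10.33 ± 0.25 (edgeR adjusted p = 1.49e-25). Adgre4, an adhesion receptor related to F4/80, had 0.179, 0.0786, 0.143, 0.227 and 0.185 CPM in the M1 libraries, against 189, 144, 163, 160 and 148 CPM in the M0 libraries (-9.91 ± 0.22). Both went to near 0 in every M1 library. The lipid transporter gene Abca9 fell by 7.96 ± 0.21 on the log2 scale, the orphan receptor gene Gprc5c by 7.85 ± 0.28 and Deptor, which encodes an inhibitor of the kinase mTOR, by 7.54 ± 0.17. F13a1, the A chain of coagulation factor XIII, stood at 9.45 ± 1.35 CPM in M1 and 1039 ± 68.9 CPM in M0, and Lifr, the receptor of leukemia inhibitory factor, at 0.561 ± 0.290 CPM in M1 and 56.9 ± 3.79 CPM in M0. The others of the 12 were Tmem176b (-6.64 ± 0.17), the ubiquitin ligase gene Rnf144b (-6.57 ± 0.14), the endosomal exchanger gene Slc9a9 (-6.34 ± 0.18), the Golgi mannosidase gene Man2a2 (-6.21 ± 0.12) and Nxpe5 (-6.16 ± 0.16).

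Counted in reads and not in fold, the change was carried by other genes, apart from Nos2, which stood in both sets. Fth1, the ferritin heavy chain, gained most, with 45020, 36005, 38918, 38819 and 43019 CPM in the M1 libraries, against 7454, 8640.2, 8348, 8800.1 and 8108 CPM in the M0 libraries (2.29 ± 0.08). Prdx1, the peroxiredoxin 1 gene, stood at 12789 ± 716 CPM in M1 and 953 ± 92 CPM in M0 (3.75 ± 0.10), and Psap, which encodes the precursor of the lysosomal saposins, at 26002 ± 1464 CPM in M1 and 15028 ± 1290.3 CPM in M0 (0.79 ± 0.10). Ifit2, Gbp2, Rsad2, Nos2 and Cd274 completed the 8 largest gains. Lyz2, the lysozyme of macrophages, lost most, with 2829.5, 2709, 3666, 2890.4 and 4345 CPM in the M1 libraries, against 21420, 22198, 20554, 19049 and 22043 CPM in the M0 libraries (-2.68 ± 0.10). Every M1 library was below every M0 library. Selenop, a selenium transport protein, stood at 215 ± 53.3 CPM in M1 and 6044 ± 776 CPM in M0, Apoe, apolipoprotein E, at 445 ± 253 CPM in M1 and 5879 ± 930.2 CPM in M0, and Csf1r, the receptor through which macrophages receive their growth factor, at 531 ± 93.9 CPM in M1 and 4556 ± 522 CPM in M0. The translation elongation factor gene Eef1a1 (-2.69 ± 0.09), the scavenger receptor gene Stab1 (-3.69 ± 0.14), Itm2b (-1.20 ± 0.06) and the mitochondrial ribosomal RNA mt-Rnr2 (-1.95 ± 0.41) were the other members of that set.

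**Figure D2:**
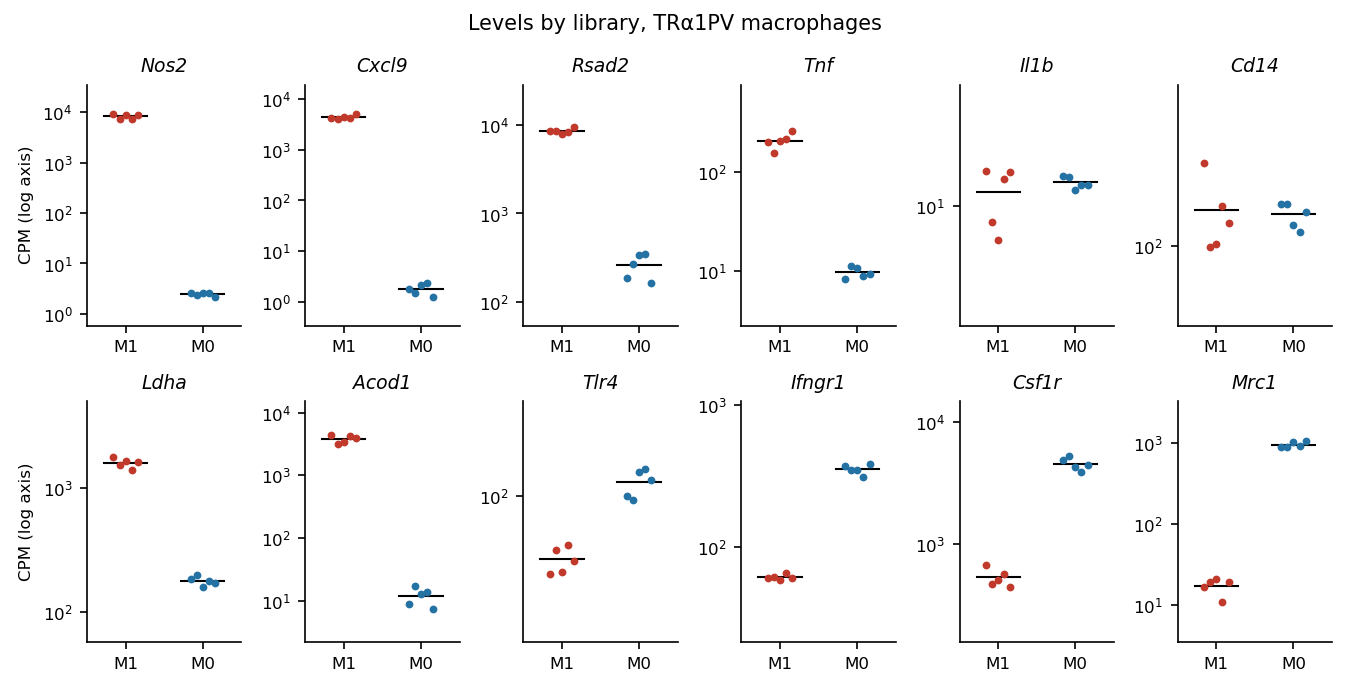
CPM on a log axis of 12 genes in each TRα1PV library, M1 on the left and M0 on the right of each panel; points are libraries and bars are group means (n = 5 each). Nos2 lies between 7282 and 9332 CPM in M1 and between 2.19 and 2.61 CPM in M0, whereas the points for Il1b and Cd14 overlap.

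The genes that sense LPS moved in both directions. Of the 21 tested genes of the LPS receptor, its adaptors and kinases, 11 rose and 5 fell, with a median log2 fold change of 0.34, though 7 rose and 11 fell with scaling to total counts alone. Over all genes tested 40.0% rose and 40.7% fell, and shares near these are no result about a list. Tlr4, the receptor itself, had 32.1, 45.9, 33.3, 48.9 and 39 CPM in the M1 libraries, against 100.4, 94.3, 142, 149 and 128 CPM in the M0 libraries (-1.62 ± 0.18, edgeR adjusted p = 1.14e-09). The M1 values all lay below the M0 values. Its co-receptor gene Cd14 stood at 156 ± 74 CPM in M1 and 148 ± 22.4 CPM in M0 (adjusted p = 0.716) and Ly96, which encodes MD-2, at 15.8 ± 5.32 CPM in M1 and 19.7 ± 2.41 CPM in M0 (adjusted p = 0.246), and neither passed the test. Ticam1, the gene of the adaptor TRIF, rose by 2.48 ± 0.06 and Myd88 by 1.24 ± 0.09. The kinase genes Irak2 (1.51 ± 0.08) and Tbk1 (1.20 ± 0.08) rose, and Irak4 (-1.08 ± 0.05) and Irak3 (-0.87 ± 0.09), an inhibitor of the pathway, fell. Of the other Toll-like receptor genes, 6 rose and 6 fell of 14 tested, with a median log2 fold change of -0.04, though 4 rose and 8 fell with scaling to total counts alone. Tlr2 (-3.81 ± 0.09), Tlr5 (-5.10 ± 0.15), Tlr7 (-2.48 ± 0.18) and Tlr8 (-4.01 ± 0.26) fell, and Tlr9, which senses bacterial DNA, rose by 2.96 ± 0.08 to 649 ± 69.9 CPM in M1, against 83.7 ± 6.92 CPM in M0. Cd180, a Toll-like receptor homologue that restrains TLR4, rose by 2.43 ± 0.12 and its partner Ly86 fell by 1.51 ± 0.18.

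The interferon-γ pathway showed a lower receptor chain and higher transducers. Ifngr1, the ligand-binding chain, had 61.4, 62.3, 59.3, 66.2 and 60.9 CPM in the M1 libraries, against 374, 349.9, 348, 311 and 385 CPM in the M0 libraries (-2.51 ± 0.07, edgeR adjusted p = 1.73e-24), the 1 decrease called among the 15 tested interferon receptor, JAK and STAT genes, of which 13 rose, though 9 rose and 4 fell with scaling to total counts alone. No M1 library reached the lowest M0 library. Ifngr2, the second chain, rose by 0.91 ± 0.04, Ifnar1, a chain of the interferon-α and -β receptor, by 1.57 ± 0.05, and Jak2 by 2.84 ± 0.10. Stat2 stood at 1426 ± 80.5 CPM in M1 and 244 ± 51.7 CPM in M0 (2.55 ± 0.12) and Stat3 at 525 ± 41 CPM in M1 and 154 ± 12.6 CPM in M0 (1.77 ± 0.07). Of the interferon regulatory factors, 6 rose and 2 fell of 8 tested (9 in the list), with a median log2 fold change of 0.82. Irf7, the factor that amplifies type I interferon production, rose by 4.53 ± 0.22, Irf1, an early target of interferon-γ, by 4.13 ± 0.09 and Irf5 by 2.05 ± 0.09. Irf4, a factor tied to the response to interleukin-4, fell by 5.70 ± 0.22 and Irf3 by 0.73 ± 0.08.

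The genes that interferons induce rose almost without exception. All 19 guanylate-binding proteins and immunity-related GTPases, which attack the vacuoles of intracellular microbes, rose beyond 2-fold, against 17.3% of all genes, with a median log2 fold change of 5.34. Tgtp1 (ENSMUSG00000078922) had 254, 206, 207, 259 and 265 CPM in the M1 libraries, against 0.405, 0.839, 0.738, 0.972 and 0.665 CPM in the M0 libraries (8.33 ± 0.20), and Gbp4 stood at 1509 ± 84.9 CPM in M1 and 7.96 ± 2.75 CPM in M0 (7.55 ± 0.23). Gbp2b had 78.1, 92.6, 77.6, 128 and 132 CPM in the M1 libraries, against 0.630, 0.550, 1.18, 1.04 and 0.0832 CPM in the M0 libraries (7.05 ± 0.31). The M1 values all lay above the M0 values. Iigp1 rose by 5.77 ± 0.26, Gbp5 by 5.42 ± 0.17 and Irgm1, which guards the host's own membranes, by 2.71 ± 0.12, and the smallest rise of the list was that of Ifi47 (2.06 ± 0.12). These genes lie in clusters of close relatives, and reads that align to several places were in no gene's count, so the split among members is uncertain.

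Of the 39 tested of 40 type I interferon-stimulated genes, 37 rose and 2 fell, with a median log2 fold change of 2.48. Oasl1 rose by 7.27 ± 0.27 to 1942 ± 208 CPM in M1, against 12.5 ± 3.72 CPM in M0, and Isg15 (ENSMUSG00000035692), a ubiquitin-like modifier, had 1053, 907, 1006, 842 and 889.7 CPM in the M1 libraries, against 17.7, 25.8, 20.5, 25.1 and 12.1 CPM in the M0 libraries (5.53 ± 0.22). Rsad2 (ENSMUSG00000020641), which encodes the antiviral enzyme viperin, had 8528, 8690, 7969, 8326 and 9418 CPM in the M1 libraries, against 186, 266, 339.9, 347 and 163 CPM in the M0 libraries (5.04 ± 0.25). No M0 library reached the lowest M1 library. Mx1, an antiviral dynamin-like GTPase, stood at 3088 ± 58.4 CPM in M1 and 154 ± 47.9 CPM in M0 (4.33 ± 0.20), and Usp18, a protease that removes ISG15 and dampens interferon signalling, at 752 ± 48.1 CPM in M1 and 27.8 ± 7.62 CPM in M0 (4.76 ± 0.18). The members that fell were Ifi27 (-2.62 ± 0.16) and Ifit3b (-0.99 ± 0.26), which is nearly identical in sequence to Ifit3 (1.33 ± 0.25).

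The promoters of 6 genes of these groups carry the elements named above and are shown for that reason. Each stretch is the 250 bases before the annotated start in RefSeq, build GRCm38.p6, read 5′ to 3′ on the strand of the gene, with capitals for every match on either strand to the ISRE (GAAA, 2 free bases, GAAA), the GAS (TTC, 3 free bases, GAA), the NF-κB site (GGGA, 1 free base, TT, 1 free base, CC) or the AP-1 site (TGA, 1 free base, TCA). They lie at chr11:48992247-48992496 (Tgtp1, minus strand), chr3:142594597-142594846 (Gbp2b, plus strand), chr4:156200819-156201068 (Isg15, minus strand), chr12:26456453-26456702 (Rsad2, minus strand), chr11:53769764-53770013 (Irf1, plus strand) and chr5:92348890-92349139 (Cxcl10, minus strand).
Tgtp1: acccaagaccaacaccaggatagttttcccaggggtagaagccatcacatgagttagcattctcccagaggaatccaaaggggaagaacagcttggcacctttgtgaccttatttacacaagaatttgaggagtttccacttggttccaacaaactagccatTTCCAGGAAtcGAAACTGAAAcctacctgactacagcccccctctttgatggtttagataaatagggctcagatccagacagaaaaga
Gbp2b: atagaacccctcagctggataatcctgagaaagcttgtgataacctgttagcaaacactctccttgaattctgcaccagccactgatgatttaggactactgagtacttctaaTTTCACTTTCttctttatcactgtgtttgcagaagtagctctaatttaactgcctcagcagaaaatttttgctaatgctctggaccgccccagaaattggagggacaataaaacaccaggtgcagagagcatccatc
Isg15: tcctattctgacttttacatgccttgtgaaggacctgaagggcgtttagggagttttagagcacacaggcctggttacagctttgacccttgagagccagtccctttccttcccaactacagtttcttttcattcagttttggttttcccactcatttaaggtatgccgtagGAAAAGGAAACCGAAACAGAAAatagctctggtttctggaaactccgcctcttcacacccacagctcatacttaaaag
Rsad2: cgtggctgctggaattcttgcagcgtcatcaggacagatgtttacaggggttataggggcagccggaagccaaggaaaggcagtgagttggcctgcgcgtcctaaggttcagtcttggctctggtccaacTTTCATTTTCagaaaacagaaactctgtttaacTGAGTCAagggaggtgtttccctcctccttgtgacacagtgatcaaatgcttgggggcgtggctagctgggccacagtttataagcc
Irf1: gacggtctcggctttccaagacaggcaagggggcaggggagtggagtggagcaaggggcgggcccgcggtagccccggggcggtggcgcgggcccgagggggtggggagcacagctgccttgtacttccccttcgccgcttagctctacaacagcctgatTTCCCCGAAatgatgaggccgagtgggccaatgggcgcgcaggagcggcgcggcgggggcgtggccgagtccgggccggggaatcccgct
Cxcl10: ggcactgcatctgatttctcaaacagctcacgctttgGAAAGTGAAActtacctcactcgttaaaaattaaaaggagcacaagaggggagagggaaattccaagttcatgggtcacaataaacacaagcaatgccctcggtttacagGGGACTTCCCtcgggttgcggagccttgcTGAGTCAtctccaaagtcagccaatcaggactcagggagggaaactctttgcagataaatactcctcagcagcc
Tgtp1 carries a GAS match 88 bases and an ISRE match 77 bases before the start, and Irf1 a GAS match 90 bases before it. The capitals of Isg15 are 3 overlapping ISRE matches, and Cxcl10 holds an ISRE, an NF-κB and an AP-1 match. Windows of 300 bases, 250 before to 50 after the start, were searched, and a gene counts if any of its windows holds a match. An ISRE match was held by 10 of 11 GTPase genes with a RefSeq window (90.9%) and by 15 of 28 of the interferon-stimulated genes (53.6%). The share was 4.02% of the 10441 tested genes with a window and 3.44% of all 32851 single windows. An ISRE match was also held by 6 of 36 cytosolic ribosomal protein genes with a window (16.7%), a list in which 47 of 48 genes fell. GAS matches were in 6 of the 11 GTPase genes (54.5%), against 8.15% of the tested genes with a window and 8.30% of all windows. These are matches of letters, and no binding was measured.

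NF-κB itself and its inhibitors rose together. Of the 15 tested NF-κB subunit and inhibitor genes, 14 rose and 1 fell, with a median log2 fold change of 1.28. Nfkbia, which encodes IκBα and is itself a target of NF-κB, stood at 431 ± 43.6 CPM in M1 and 61.6 ± 3.89 CPM in M0 (2.81 ± 0.08), and the deubiquitinase gene Tnfaip3, which encodes A20, rose by 2.91 ± 0.07 and Tnip3 by 3.22 ± 0.15. The subunit genes moved less, with Nfkb2 at 1.28 ± 0.10 and Rela at 1.17 ± 0.07. Nfkbiz, a nuclear cofactor for secondary response genes, was the exception and fell by 1.08 ± 0.12. An NF-κB match lay in the windows of 7 of the 12 genes of this list with a window (58.3%). The share was 1.69% of the tested genes with a window and 1.20% of all windows.

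Feedback inhibitors of cytokine signalling included some of the sharpest rises. Socs1, which blocks JAK kinases, had 272, 207, 273, 215 and 249 CPM in the M1 libraries, against 0.855, 1.02, 0.620, 0.797 and 0.721 CPM in the M0 libraries (8.26 ± 0.20). The groups did not overlap, with M1 higher throughout. Socs3 rose by 6.97 ± 0.20, Il1rn, the interleukin-1 receptor antagonist, by 6.46 ± 0.17 to 1368 ± 199.5 CPM in M1, against 15.4 ± 3.34 CPM in M0, and Dusp1, a phosphatase of MAP kinases, by 3.59 ± 0.15. In all, 12 rose and 4 fell of 19 tested, with a median log2 fold change of 1.49, and 11 rose and 7 fell with scaling to total counts alone, and Zfp36l1, an RNA-decay factor, fell by 3.67 ± 0.14 while its relative Zfp36 rose by 2.51 ± 0.10. Of the AP-1 and early response factors, 11 rose and 8 fell of 22 tested, with a median log2 fold change of 0.37, though 9 rose and 11 fell with scaling to total counts alone. Batf2 (4.61 ± 0.14), Atf3 (3.33 ± 0.08) and Junb (2.37 ± 0.10) rose, and Egr2 (-4.81 ± 0.16), Nr4a1 (-2.90 ± 0.17) and Myc (-1.41 ± 0.18) fell.

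Cytokine genes rose with exceptions among the best-known ones. Of the 22 tested of 27 inflammatory cytokine genes, 19 rose and 2 fell, with a median log2 fold change of 2.82. Tnf (ENSMUSG00000024401) had 203, 156, 206, 214 and 259 CPM in the M1 libraries, against 8.22, 11.1, 10.7, 8.81 and 9.37 CPM in the M0 libraries (4.43 ± 0.18), and Il6 (ENSMUSG00000025746) had 12.5, 12.7, 10.8, 14.1 and 27.6 CPM in the M1 libraries, against 0.0675, 0.0786, 0.295, 0.127 and 0.139 CPM in the M0 libraries (6.63 ± 0.34). Il27, a member of the interleukin-12 family, rose by 6.24 ± 0.19, Il1a by 4.13 ± 0.25 and Ifnb1, interferon-β, by 6.5 ± 0.26 to 4.31 ± 0.444 CPM in M1, against 0.0445 ± 0.0130 CPM in M0. Il33 had 264 reads over the M1 libraries, against 1 over the M0 libraries, a ratio of M1 over M0 of 469 (95% exact interval 83.5 to 18604). Il1b (ENSMUSG00000027398), by contrast, had 14.7, 8.37, 6.86, 13.4 and 14.4 CPM in the M1 libraries, against 13.9, 13.8, 11.9, 12.5 and 12.5 CPM in the M0 libraries (-0.16 ± 0.24, edgeR adjusted p = 0.545). The values of the groups overlapped. The 2 decreases were Tgfb1, an anti-inflammatory cytokine (-1.0 ± 0.06), and Tnfsf13b (-0.67 ± 0.19), and Il10 rose by 1.84 ± 0.18 to 10.5 ± 2.55 CPM in M1, against 2.89 ± 0.613 CPM in M0.

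The chemokines split by receptor. The 3 ligands of CXCR3, Cxcl9, Cxcl10 and Cxcl11, rose, and Cxcl10 (ENSMUSG00000034855) had 1177, 1063, 1134, 974 and 1307 CPM in the M1 libraries, against 35, 53.1, 63.8, 58.2 and 25.1 CPM in the M0 libraries (4.58 ± 0.24). Cxcl16, the ligand of CXCR6, rose by 2.67 ± 0.07. Cxcl2 (-2.94 ± 0.24) and Cxcl1 (-2.56 ± 0.48), which attract neutrophils through CXCR2, fell to 0.994 and 0.112 CPM in M1, against 7.58 and 0.670 CPM in M0, and the platelet-type chemokines Ppbp (-6.36 ± 0.38) and Pf4 (-1.89 ± 0.15) fell as well. Cxcl12 had 1 read over the M1 libraries, against 192 over the M0 libraries, a ratio of M0 over M1 of 108 (95% exact interval 19.2 to 4288). Over the list, 4 rose and 5 fell of 11 tested (12 in the list), with a median log2 fold change of -0.96. Of the CC chemokines, 8 rose and 3 fell of 12 tested, with a median log2 fold change of 3.40. Ccl5 (ENSMUSG00000035042), which attracts T cells and monocytes, had 4450.1, 3140.1, 3721, 3496 and 4046 CPM in the M1 libraries, against 5.83, 9.57, 5.89, 7.47 and 5.05 CPM in the M0 libraries (9.12 ± 0.28). Ccl8 (7.03 ± 0.39), Ccl22 (6.94 ± 0.37), Ccl2 (6.25 ± 0.24) and Ccl7 (5.33 ± 0.27) rose, and Ccl6 (-3.83 ± 0.14), Ccl9 (-1.11 ± 0.10) and Ccl3 (-0.56 ± 0.14) fell.

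Chemokine receptor genes moved in both directions. Besides Ccr7, the formyl peptide receptor gene Fpr2 (4.66 ± 0.27) and Ccrl2 (3.77 ± 0.13) rose. Cxcr4, which holds cells in the bone marrow, had 6.74, 5.81, 6.65, 6.8 and 10.8 CPM in the M1 libraries, against 125, 136, 129.9, 124 and 137 CPM in the M0 libraries (-4.14 ± 0.16), and C5ar1 (-2.96 ± 0.11), Cx3cr1 (-2.95 ± 0.26) and Ccr2 (-1.65 ± 0.26) also fell. Of the 14 tested of 15 chemokine receptor genes, 7 rose and 7 fell, with a median log2 fold change of -0.55, though 5 rose and 7 fell with scaling to total counts alone.

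Antigen presentation rose along the class I path. Of the 22 tested genes of class I molecules, peptide loading and the immunoproteasome, 21 rose and 1 fell, with a median log2 fold change of 2.46. B2m, the light chain of class I molecules, had 6511, 6653, 6343, 7107 and 8091 CPM in the M1 libraries, against 1480.4, 1561, 1912, 2199 and 1599 CPM in the M0 libraries (1.99 ± 0.12). H2-K1 rose by 2.15 ± 0.09, the peptide transporter gene Tap1 by 3.42 ± 0.11, the immunoproteasome subunit gene Psmb9 by 3.08 ± 0.10 and Nlrc5, the transactivator of class I genes, by 2.54 ± 0.09. The decrease was that of the chaperone gene Canx (-0.24 ± 0.08), which lost its call without M0 replicate 4 (-0.18, adjusted p = 0.0602). Of the 13 tested class II genes, 11 rose and 1 fell, with a median log2 fold change of 1.24, and 7 rose and 2 fell with scaling to total counts alone. H2-Ab1 rose by 2.59 ± 0.30 to 73.9 ± 23.2 CPM in M1, against 12.4 ± 4.89 CPM in M0, Cd74, the invariant chain, by 2.01 ± 0.27, and Ciita, the class II transactivator, by 0.91 ± 0.26 to 5.33 ± 2.27 CPM in M1, against 2.86 ± 0.837 CPM in M0. Scaling to total counts alone ended the call of Ciita (0.40, adjusted p = 0.153).

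Of the 19 tested costimulatory and coinhibitory genes, 14 rose and 3 fell, with a median log2 fold change of 2.70. Cd40, the receptor for help from T cells, had 781, 748, 872, 652 and 855 CPM in the M1 libraries, against 8.1, 12.2, 8.99, 9.19 and 6.85 CPM in the M0 libraries (6.43 ± 0.13). Cd38, an ectoenzyme that breaks down NAD, stood at 140.2 ± 14.1 CPM in M1 and 0.356 ± 0.114 CPM in M0 (8.67 ± 0.25), and Slamf1 (6.52 ± 0.24), Cd86 (2.70 ± 0.11) and Tnfrsf9 (7.32 ± 0.30) rose. The ligands of the inhibitory receptor PD-1 rose too, Cd274 by 5.81 ± 0.13 to 6771 ± 596 CPM in M1, against 121 ± 30.2 CPM in M0 and Pdcd1lg2 by 5.51 ± 0.17. Vsir, which encodes the inhibitory protein VISTA, fell by 1.26 ± 0.10 and Cd83 by 1.05 ± 0.14.

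**Figure D3:**
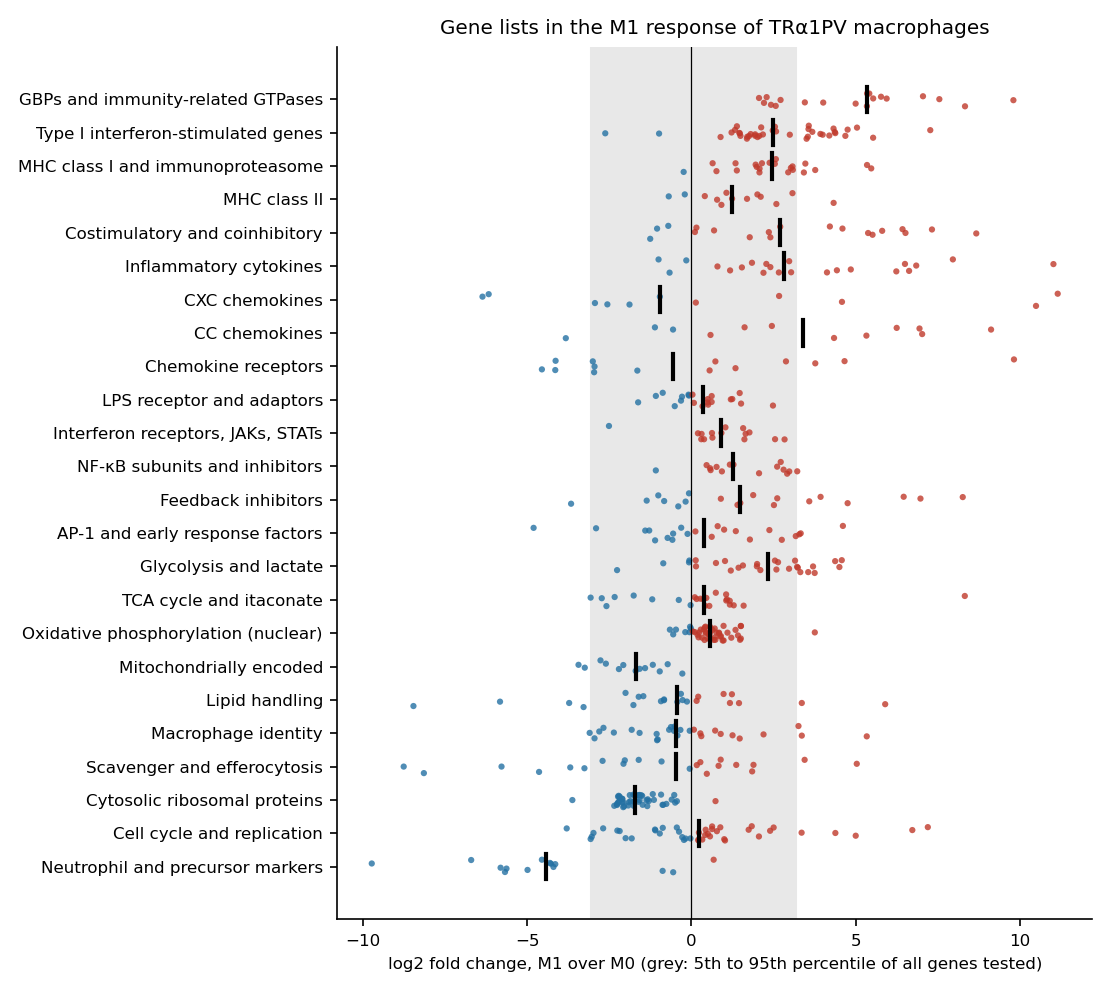
Log2 fold changes, M1 over M0 in TRα1PV macrophages, of the tested members of 24 gene lists (points), with the list median (black tick); the grey band spans the 5th to 95th percentile of all 15686 genes, -3.05 to 3.19. The GTPases lie wholly to the right of 0 with a median of 5.34, and the cytosolic ribosomal proteins lie to the left with a median of -1.72.

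In metabolism, genes of arginine handling changed by large amounts, with 11 rises and 4 falls of 17 tested (18 in the list). Beside Nos2, the arginine carrier gene Slc7a2 rose by 5.61 ± 0.14 to 269 ± 22.3 CPM in M1, against 5.46 ± 0.746 CPM in M0 and Ass1, which rebuilds arginine from citrulline, by 4.41 ± 0.20. Arg1, the arginase that competes with nitric oxide synthase, also rose, with 13.9, 15, 14.6, 10.4 and 13.8 CPM in the M1 libraries, against 0.248, 0.157, 0.148, 0.191 and 0.139 CPM in the M0 libraries (6.23 ± 0.34). Gch1, the first enzyme toward the synthase's cofactor tetrahydrobiopterin, rose by 1.44 ± 0.10, while the next enzymes, Pts (-2.09 ± 0.07) and Spr (-1.56 ± 0.15), fell. Of the polyamine genes, Odc1 rose by 1.74 ± 0.08 and Srm, spermidine synthase, fell by 3.65 ± 0.23.

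The glycolytic genes rose along nearly the whole path. Of the 28 tested genes of glycolysis and lactate transport, 23 rose and 2 fell, with a median log2 fold change of 2.32, and 21 rose and 6 fell with scaling to total counts alone. The glucose carrier gene Slc2a1 rose by 4.51 ± 0.11, Hk3 by 4.58 ± 0.11 to 2347 ± 205 CPM in M1, against 98.3 ± 6.06 CPM in M0, Pfkfb3, whose product drives phosphofructokinase, by 3.75 ± 0.09, Tpi1 by 3.22 ± 0.07 and Pgk1 by 3.24 ± 0.09. Ldha (ENSMUSG00000063229), lactate dehydrogenase A, had 1776, 1524, 1659, 1387 and 1603 CPM in the M1 libraries, against 184, 197, 160.4, 178 and 172 CPM in the M0 libraries (3.16 ± 0.09), and the lactate exporter gene Slc16a3 rose by 4.38 ± 0.11. Hif1a, which encodes a factor known to raise glycolytic genes, rose by 1.57 ± 0.13, and its part in these changes was not tested. Ldhb (-2.26 ± 0.15) and Pfkfb4 (-0.86 ± 0.11) fell.

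The tricarboxylic acid cycle held rising and falling steps. Acod1 (ENSMUSG00000022126), which makes itaconate from the cycle, had 4453, 3206, 3456, 4172 and 3906 CPM in the M1 libraries, against 8.73, 17.1, 12.7, 13.8 and 7.46 CPM in the M0 libraries (8.32 ± 0.30). Every M1 library was above every M0 library. Idh1 (-2.59 ± 0.07) and Idh2 (-2.73 ± 0.09), the isocitrate dehydrogenases that use NADP, and Idh3g (-1.76 ± 0.08) fell. Fh1, fumarase, fell by 2.34 ± 0.12 and Suclg2 by 3.07 ± 0.11, whereas Cs, citrate synthase (1.17 ± 0.07), Mdh2 (1.17 ± 0.11) and the citrate carrier gene Slc25a1 (1.59 ± 0.08) rose. Over the list, 15 rose and 7 fell of 24 tested, with a median log2 fold change of 0.39, though 9 rose and 11 fell with scaling to total counts alone. Nuclear genes of oxidative phosphorylation were 39 higher and 4 lower of 48 tested, with a median log2 fold change of 0.57, and 20 rose and 14 fell with scaling to total counts alone, led by Cycs, cytochrome c (3.76 ± 0.10). The 13 mitochondrially encoded genes were none higher and 12 lower of 13 tested, with a median log2 fold change of -1.70. Of these, mt-Nd2, a subunit of complex I, had 36.3, 75.6, 42.2, 76.7 and 103 CPM in the M1 libraries, against 385, 359, 885, 865 and 681 CPM in the M0 libraries (-3.25 ± 0.51), and mt-Co1, a subunit of complex IV, stood at 5623 ± 1429 CPM in M1 and 6816 ± 1381 CPM in M0 (adjusted p = 0.29). The mitochondrial share of the reads given above moved with these genes.

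**Figure D4:**
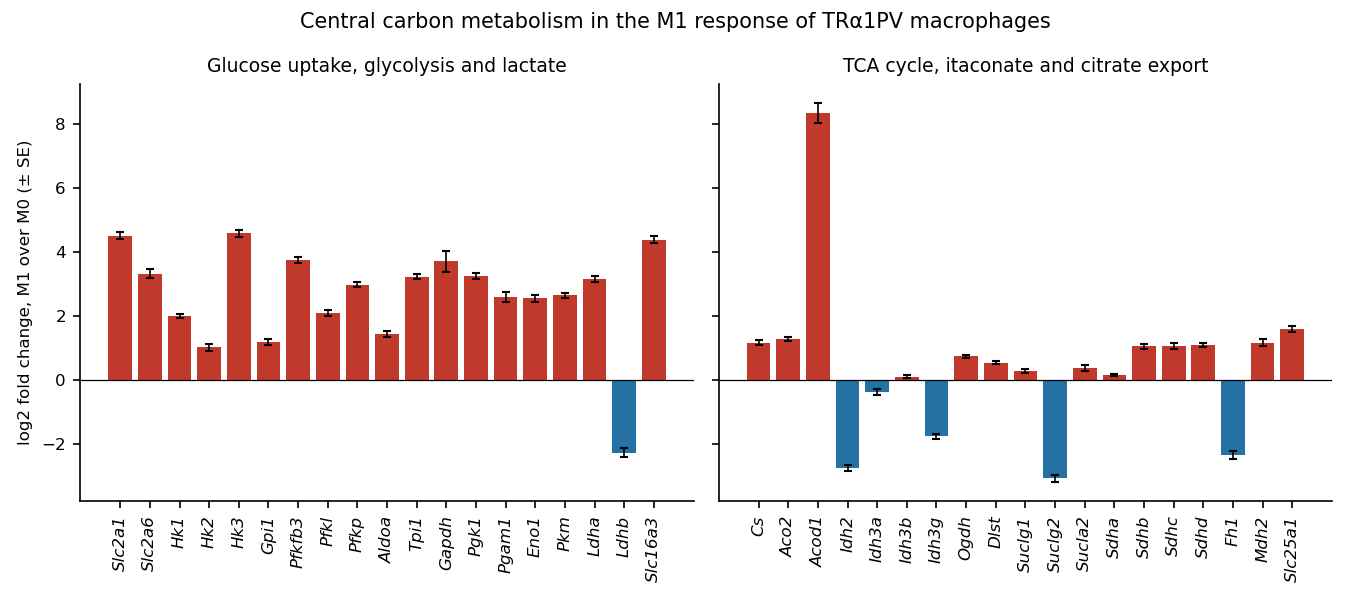
Log2 fold change, M1 over M0 in TRα1PV macrophages (bars, edgeR standard errors as error bars, n = 5 libraries per group), of genes of glucose uptake and glycolysis (left) and of the tricarboxylic acid cycle (right), in the order of the steps. Hk3 at 4.58 (left) and Acod1 at 8.32 (right) stand highest, and Suclg2 at -3.07 (right) lowest.

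Lipid genes moved unevenly. Apoc1 (-5.83 ± 0.26), Abca1, the cholesterol exporter (-3.29 ± 0.12), and Angptl4, an inhibitor of lipoprotein lipase (-8.47 ± 0.39), fell with Apoe, while Nr1h3, which encodes LXRα, rose by 3.36 ± 0.19 and Abcg1 by 1.23 ± 0.09. Of the 23 tested genes of lipid handling, 7 rose and 14 fell, with a median log2 fold change of -0.43. Scd2, a stearoyl-CoA desaturase, rose by 4.23 ± 0.28 and Ch25h, which makes 25-hydroxycholesterol, by 5.90 ± 0.38, and Fasn, fatty acid synthase, fell by 2.79 ± 0.13. In the prostaglandin and leukotriene path, 5 rose and 11 fell of 16 tested (19 in the list), with a median log2 fold change of -0.58. The releasing phospholipase gene Pla2g4a (5.37 ± 0.09), Ptgs2 and the prostaglandin E synthase gene Ptges (6.81 ± 0.20) rose. Hpgd, the enzyme that breaks prostaglandins down, had 0.0359, 0.0786, 0, 0.113 and 0.0309 CPM in the M1 libraries, against 31.5, 31.9, 40.5, 40.5 and 37.6 CPM in the M0 libraries (-9.41 ± 0.32), and Ptgs1 (-4.43 ± 0.14), Hpgds (-2.23 ± 0.13) and the receptor gene Ptger4 (-1.99 ± 0.12) fell.

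Of the iron and heme genes, 9 rose and 5 fell of 16 tested, with a median log2 fold change of 0.74, and 8 rose and 7 fell with scaling to total counts alone. Slc40a1, ferroportin, the exporter of iron, had 24.9, 33, 29.4, 23.3 and 28.7 CPM in the M1 libraries, against 865, 896, 943, 850 and 1136 CPM in the M0 libraries (-5.07 ± 0.15). The groups did not overlap, with M1 lower throughout. The transferrin receptor gene Tfrc fell by 3.26 ± 0.16, and Lcn2, which binds bacterial iron carriers, rose by 3.24 ± 0.31. Hmox1, heme oxygenase, stood at 3323 ± 506 CPM in M1 and 461 ± 59.8 CPM in M0 (2.85 ± 0.11), Sod2 rose by 2.86 ± 0.10 and Txn1 by 2.29 ± 0.08, and Cat, catalase, fell by 2.13 ± 0.09. Of the 19 tested antioxidant genes, 13 rose and 5 fell, with a median log2 fold change of 0.42, though 8 rose and 9 fell with scaling to total counts alone. In tryptophan and NAD metabolism, 10 rose and 4 fell of 16 tested (18 in the list), with a median log2 fold change of 0.71, and 8 rose and 6 fell with scaling to total counts alone. Kynu (4.6 ± 0.18) and Nampt (2.51 ± 0.16) rose and Kmo (-7.04 ± 0.24) fell. Ido1 had 145 reads over the M1 libraries, against 1 over the M0 libraries, a ratio of M1 over M0 of 258 (95% exact interval 45.5 to 10249).

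Genes of macrophage identity and clearance moved in both directions. Of the 28 tested macrophage identity genes, 10 rose and 16 fell, with a median log2 fold change of -0.47. The factor gene Maf stood at 195 ± 22.8 CPM in M1 and 1004 ± 94 CPM in M0 (-2.36 ± 0.15), and Cebpa (-1.82 ± 0.13), Tfec (-2.81 ± 0.10) and Runx1 (-1.58 ± 0.07) fell, whereas Cebpb (3.26 ± 0.11), Klf4 (5.34 ± 0.11) and Spi1, which encodes PU.1 (1.25 ± 0.07), rose. The macrophage markers Cd68 (1153 ± 112 CPM in M1 and 1196 ± 84.6 CPM in M0), Adgre1 (1988 ± 301 CPM in M1 and 1647 ± 136 CPM in M0) and Fcgr1 (1047 ± 78 CPM in M1 and 229 ± 22.2 CPM in M0) were present in both groups. Csf1r and Lyz2, also macrophage markers, fell, with log2 fold changes of -3.1 and -2.68. Among the scavenger receptors, Mrc1, the mannose receptor, had 16.5, 19.2, 20.6, 10.8 and 19.1 CPM in the M1 libraries, against 895, 884, 1022, 908 and 1043 CPM in the M0 libraries (-5.78 ± 0.17), and Cd163 (-8.15 ± 0.39) and Stab2 (-8.76 ± 0.23) fell with Stab1, while Marco (5.03 ± 0.38) and Msr1 (1.85 ± 0.12) rose. Gas6, a bridge between receptors and dying cells, fell by 4.64 ± 0.10 and its receptor gene Axl rose by 1.89 ± 0.15. Of the 22 tested of 24 scavenger and efferocytosis genes, 8 rose and 11 fell, with a median log2 fold change of -0.48. In the complement list, 7 rose and 8 fell of 17 tested (18 in the list), with a median log2 fold change of -0.22. C3 rose to 6747 ± 1343 CPM in M1, against 109 ± 16 CPM in M0 (5.96 ± 0.16) with Cfb (7.23 ± 0.32) and Serping1 (9.24 ± 0.42). Of the Fc receptors, 3 rose and 2 fell of 6 tested, with a median log2 fold change of 0.80, though 3 rose and 3 fell with scaling to total counts alone. Fcgr1 (2.2 ± 0.11) and Fcgr4 (1.69 ± 0.08) rose and the inhibitory Fcgr2b (-1.25 ± 0.12) and Fcgrt (-3.77 ± 0.13) fell.

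Lysosomal genes held both directions, 14 higher and 13 lower of 35 tested, with a median log2 fold change of 0.02, though 12 rose and 22 fell with scaling to total counts alone. The cathepsin genes Ctsh (2.21 ± 0.05) and Ctsc (1.83 ± 0.10) rose, and Galc (-2.95 ± 0.07) and the mannosidase gene Man2b1 (-2.61 ± 0.09) fell. Of the metalloproteinases and their inhibitors, 6 rose and 7 fell of 14 tested (16 in the list), with a median log2 fold change of -0.50. Mmp14 (4.32 ± 0.20) and Mmp25 (7.43 ± 0.23) rose, with the inhibitor gene Timp1 (7.34 ± 0.48), and Timp2 fell by 3.66 ± 0.11. Of the integrins, Itga5 rose by 3.97 ± 0.12, and Itga4 (-3.71 ± 0.19) and Itga6 (-2.65 ± 0.09) fell.

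Of the 48 tested cytosolic ribosomal protein genes, 1 rose and 47 fell, with a median log2 fold change of -1.72. Rpl3 had 96, 88.6, 92.1, 77.1 and 89.2 CPM in the M1 libraries, against 449, 459, 385, 359.6 and 434 CPM in the M0 libraries (-2.23 ± 0.11), and the exception was Rps24, at 948 ± 58.6 CPM in M1 and 571 ± 41 CPM in M0 (0.73 ± 0.06). Ribosomal protein genes have many processed copies, and reads shared with them were in no gene's count. Of the cell cycle genes, 19 rose and 17 fell of 43 tested, with a median log2 fold change of 0.23, though 13 rose and 19 fell with scaling to total counts alone. The G1 cyclin genes Ccnd1 (5.00 ± 0.17), Ccnd2 (6.73 ± 0.20) and Ccne1 (7.20 ± 0.13) rose, as did the inhibitor genes Cdkn1a (2.40 ± 0.10) and Cdkn2d (4.38 ± 0.18). Ccna2, the cyclin of S phase (-3.80 ± 0.39), and the replication helicase genes Mcm7 (-3.07 ± 0.18) and Mcm3 (-2.0 ± 0.11) fell. Of the 25 tested cell death genes, 20 rose and 2 fell, with a median log2 fold change of 1.73, and 17 rose and 5 fell with scaling to total counts alone. Cflar, which blocks caspase 8, rose by 3.52 ± 0.08 and Bcl2l1 by 3.36 ± 0.11, together with Mlkl, the executor of necroptosis (3.18 ± 0.11), and Bak1 (2.99 ± 0.06). In the inflammasome list, Casp4 (3.06 ± 0.13), Casp1 (2.5 ± 0.11) and Gsdmd (1.74 ± 0.09) rose, and the sensor genes Nlrp3 (-1.97 ± 0.14) and Nlrp1b (-2.27 ± 0.08) and the ATP receptor gene P2rx7 (-2.19 ± 0.09) fell. Of the 19 tested inflammasome genes, 10 rose and 6 fell, with a median log2 fold change of 0.22, though 8 rose and 11 fell with scaling to total counts alone. Of the genes of the unfolded protein and integrated stress response, 13 rose and 3 fell of 20 tested, with a median log2 fold change of 0.64, though 8 rose and 8 fell with scaling to total counts alone. Atf4 (2.07 ± 0.10), Ddit3 (1.94 ± 0.10) and Hspa5, the chaperone BiP (1.52 ± 0.07), were among those that rose.

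Thra (ENSMUSG00000058756), the gene that carries the mutation, had 53.8, 45.4, 51.7, 48.9 and 46.1 CPM in the M1 libraries, against 58.2, 61.1, 56.9, 50.8 and 53.5 CPM in the M0 libraries. Libraries of both groups were interleaved. Its log2 fold change was -0.19 ± 0.09 (edgeR adjusted p = 0.0653), and with the replicate number as a block it was -0.19 with an adjusted p of 0.0295. Gene counts do not tell the mutant from the normal transcript. Thrb had 2 reads over the M1 libraries, against 51 over the M0 libraries, a ratio of M0 over M1 of 14.3 (95% exact interval 3.77 to 122). Klf9, a target of thyroid hormone in many tissues, stood at 0.747 ± 0.173 CPM in M1 and 1.09 ± 0.213 CPM in M0 (-0.53 ± 0.21, adjusted p = 0.0214), a call that limma-voom and leaving out M0 replicate 1 or 4 or M1 replicate 1 or 2 ended. Rxra, the partner of the thyroid hormone receptors, fell by 1.46 ± 0.08, Dio2, which makes the active hormone, by 2.02 ± 0.42, and the amino acid transporter gene Slc7a8 rose by 2.39 ± 0.08. Of the genes known to respond to the hormone in other tissues, 5 rose and 7 fell of 13 tested (17 in the list), with a median log2 fold change of -0.53, and the sulfotransferase gene Sult1a1 (-6.60 ± 0.16) and the peroxisomal carrier gene Abcd2 (-3.78 ± 0.11) lay lowest and Bcl3, a cofactor of NF-κB, highest (2.61 ± 0.10). Of the 20 tested of 24 genes of thyroid hormone receptors, transporters and cofactors, 9 rose and 5 fell, with a median log2 fold change of 0.09, though 5 rose and 12 fell with scaling to total counts alone.

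Markers of other cells moved with the stimulation, and their part in the results above was not tested. Of the 14 tested of 16 markers of neutrophils and their precursors, 1 rose and 12 fell, with a median log2 fold change of -4.43; their summed level was 160.1 to 206 CPM in M1, against 286 to 486 CPM in M0. Ngp, a granule protein of neutrophil precursors, had 2.3, 0.982, 0.894, 1.02 and 1.23 CPM in the M1 libraries, against 95, 77.4, 59.1, 47.5 and 52 CPM in the M0 libraries (-5.68 ± 0.43), and S100a9 stood at 2.41 ± 1.07 CPM in M1 and 76.4 ± 28 CPM in M0 (-4.99 ± 0.45). Elane had 0 reads over the M1 libraries, against 713 over the M0 libraries, at least 134-fold lower with a floor of 3 reads over the group. The exception was Csf3r, the receptor of granulocyte colony-stimulating factor (0.68 ± 0.09; 0.17 with an adjusted p of 0.104 on scaling to total counts alone). The inflammatory monocyte list split, with 5 rises and 3 falls of 10 tested. The dendritic cell list held 7 rises and 3 falls of 11 tested (13 in the list). Its summed level was 692 to 899 CPM in M1, against 59.0 to 86.3 CPM in M0, and its largest rise was that of Ccr7 (9.82). Its member Siglech had 0 reads over the M1 libraries, against 207 over the M0 libraries. That is at least 38.8-fold lower with a floor of 3 reads over the group. Of 10 B cell symbols only Cd79b (-3.27 ± 0.20) and Ighm (-3.14 ± 0.21) passed the filter on low counts, and of 12 T and NK cell symbols only Cd4 (-3.80 ± 0.22) and Lck (4.58 ± 0.34); Ms4a1, Cd3e and Trac did not pass it. None of 8 mast cell and basophil and none of 8 erythroid markers passed it. Of the eosinophil markers, none rose and 2 fell of 3 tested (6 in the list). Of the endothelial markers, 3 rose and 1 fell of 5 tested (8 in the list), and Pecam1, which leukocytes also carry, rose by 2.76 ± 0.14. Of the stromal markers, 2 rose and 1 fell of 10 tested (12 in the list), with log2 fold changes from -2.025 to 6.79. The collagen gene Col1a1 stood at 0.0438 ± 0.0321 CPM in M1 and 0.0858 ± 0.0767 CPM in M0 (adjusted p = 0.591), and Col6a3, a chain of collagen VI, at 4.07 ± 0.698 CPM in M1 and 0.0839 ± 0.0723 CPM in M0 (5.72 ± 0.42).

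The response was also compared with that of WT macrophages, as the difference of the 2 log2 fold changes in 1 model. It differed in 4175 genes (26.6%), with 2091 (13.3%) above and 2084 (13.3%) below the WT response. WT M0 replicate 2 stood apart, with 4.56% of its gene reads from the mitochondrial genome where the other libraries of that group had 0.921 to 2.07%, and without it the counts were 3020 above and 2973 below. In the GTPase list, 18 of 19 members had a response below that of WT and none above it, with a median log2 fold change of 5.34 in TRα1PV and 6.53 in WT. In the type I interferon list this held for 32 of 39, with 1 above and medians of 2.48 in TRα1PV and 3.23 in WT, against 13.3% of all genes below.

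The levels behind these differences were as follows. Ifi47 stood at 342 ± 32 CPM in M1 and 82 ± 15.2 CPM in M0 of TRα1PV, and at 382 ± 28.6 CPM in M1 and 29.3 ± 6.68 CPM in M0 of WT, a difference of -1.65 ± 0.17 (edgeR adjusted p = 2.00e-07). Rsad2 stood at 8586 ± 537 CPM in M1 and 261 ± 84.8 CPM in M0 of TRα1PV, and at 7441 ± 1557 CPM in M1 and 75 ± 14.4 CPM in M0 of WT (-1.59 ± 0.30). For these genes the larger gap between the genotypes was in M0. Gbp2b stood at 102 ± 26.7 CPM in M1 and 0.696 ± 0.434 CPM in M0 of TRα1PV, and at 291 ± 92.9 CPM in M1 and 0.291 ± 0.147 CPM in M0 of WT (-2.90 ± 0.54), with a lower mean in M1 and a higher mean in M0 of TRα1PV than of WT. Olfr56, which overlaps Ifi47 on the same strand in the GENCODE vM21 annotation, had a difference of -2.25 ± 0.25, and the 2 genes may share reads.

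In the glycolysis list 13 of 28 members had a response above that of WT and none below it, with medians of 2.32 in TRα1PV and 1.93 in WT, against 13.3% of all genes above. Slc2a1 (0.98 ± 0.14), Hk3 (1.07 ± 0.14) and Slc16a3 (0.95 ± 0.14) were among them. Of the lysosomal genes 15 of 35 were above and 4 below. In the class II list 4 of 13 were below and none above, among them Ciita, at 0.91 ± 0.26 in TRα1PV and 3.11 ± 0.26 in WT (difference -2.2 ± 0.36, edgeR adjusted p = 1.06e-04).

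Single genes of other lists also differed. Klf9 stood at 0.747 ± 0.173 CPM in M1 and 1.09 ± 0.213 CPM in M0 of TRα1PV, and at 27.5 ± 5.83 CPM in M1 and 15.4 ± 1.35 CPM in M0 of WT, a difference of -1.37 ± 0.24 (edgeR adjusted p = 1.69e-04). The response of Il1b was -0.16 ± 0.24 in TRα1PV and 1.36 ± 0.23 in WT (difference -1.51 ± 0.33), that of Arg1 was 6.23 ± 0.34 in TRα1PV and 3.90 ± 0.32 in WT (difference 2.33 ± 0.58) and that of Timp1 was 7.34 ± 0.48 in TRα1PV and 3.52 ± 0.42 in WT (difference 3.82 ± 0.69). These 4 were chosen after their values were seen.

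**Figure D5:**
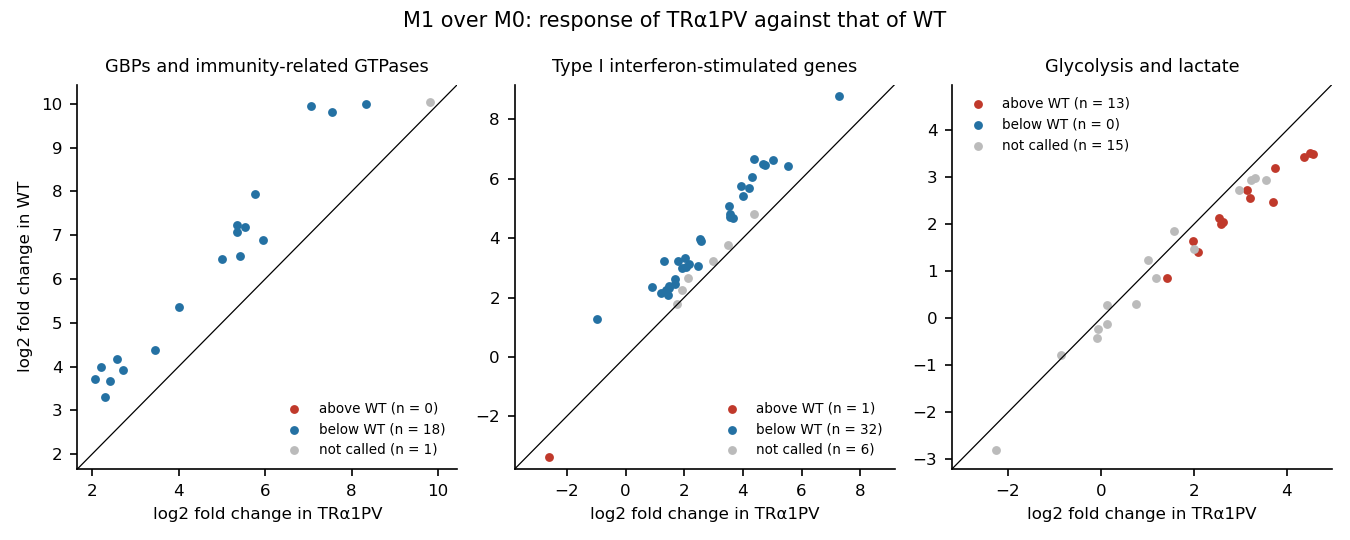
Log2 fold change, M1 over M0, in TRα1PV (horizontal axis) and in WT macrophages (vertical axis) for the tested members of 3 gene lists; the line marks equal responses. Of the 19 GTPases 18 and of the 39 type I interferon genes 32 have a response below that of WT at an adjusted p under 0.05, and 13 of the 28 glycolytic genes one above it; the remaining points are grey apart from 1 interferon gene above WT.

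The genes with the smallest p for this difference were of mixed function. Ighm, the heavy chain of IgM, stood at 0.807 ± 0.295 CPM in M1 and 7.28 ± 1.48 CPM in M0 of TRα1PV, and at 1.13 ± 0.318 CPM in M1 and 230.2 ± 22.3 CPM in M0 of WT (4.52 ± 0.35, edgeR adjusted p = 1.44e-09). Rin2, a regulator of the endosomal GTPase Rab5, had a response of 2.28 ± 0.09 in TRα1PV and 0.67 ± 0.09 in WT (adjusted p = 1.98e-09). The RNA-editing enzyme gene Apobec1 (0.71 ± 0.07), the autophagy gene Trp53inp2 (0.88 ± 0.08) and Por, the reductase of cytochrome P450 enzymes (1.04 ± 0.12), were also above WT. Intu (-1.37 ± 0.13) and Hacd3, an enzyme of fatty acid elongation (-1.24 ± 0.12), were below it.

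M1 and M2 of TRα1PV share the M0 libraries and were therefore tested directly against each other. Between them 12678 genes (80.8%) were called, 6249 (39.8%) higher and 6429 (41.0%) lower in M1. Of 28 tested of 30 alternative activation genes, which interleukin-4 is known to raise, 24 were lower and 4 higher in M1 than in M2. The 4 were Il4ra (2.5 ± 0.14), the receptor chain for interleukin-4, Il13ra1 (5.56 ± 0.19), the transglutaminase gene Tgm2 (3.91 ± 0.12) and the chemokine gene Ccl22. Arg1 stood at 13.5 CPM in M1 and 399 CPM in M2 (-4.88 ± 0.23), and Ccl22 at 20.2 CPM in M1 and 6.66 CPM in M2 (1.61 ± 0.25). Slc7a2 stood at 269 CPM in M1 and 496 CPM in M2 (-0.88 ± 0.11), and Klf4, a factor known from both states, at 212 CPM in M1 and 71.8 CPM in M2 (1.56 ± 0.09). All 19 GTPases and 38 of the 39 type I interferon genes were higher in M1 than in M2, and 45 of the 48 ribosomal protein genes lower.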

How the data were processed

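RNA of bone marrow derived macrophages was sequenced from 30 libraries, 5 in each of 6 groups, and the authors deposited raw read counts per gene for each library. Per the submitters' processing notes, the reads were handled with FastQC 0.11.9, Trimmomatic 0.39, HISAT2 2.2.1 and HTSeq 1.99.2 on build GRCm39. The gene annotation, the strand setting of the counting and the strandedness of the kit were not stated in the labels, so reads from overlapping genes on opposite strands may not be told apart. The deposited tables list 55414 genes and 5 totals of reads in no gene, and the totals were left out of library sizes and tests. Reads in genes came to 23015952 to 59086252 per library. Reads outside genes made up 8.66 to 14.4% of the reads in genes, outside genes or ambiguous between genes. Symbols were matched for 52081 genes, and reads that align to several places were in no gene's count.

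Counts were tested with edgeR 4.0.16 in R 4.3.3: filterByExpr with a minimum count of 10 left 15686 genes, libraries were scaled with TMM factors, and 1 quasi-likelihood fit over all 30 libraries with a mean per group (24 residual degrees of freedom) gave each contrast. Calls rest on two-sided p-values with Benjamini-Hochberg adjustment across the genes tested and a threshold of 0.05, and the standard error is the absolute log2 fold change over the square root of F. The rule for more than 2-fold used glmTreat with a log2 minimum of 1. The difference of the TRα1PV and WT responses was a contrast in the same fit. Levels are counts per 1000000 gene reads (CPM) on TMM-scaled library sizes, with the SD over 5 libraries. For genes with few reads in 1 group, a ratio has an exact interval or a floor of 3 reads over the group, and both cover counting error only. Library measures were compared by an exact permutation test over 252 arrangements, two-sided.

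Members, the 55 gene lists and the rule for naming genes were chosen with earlier results of these data known. The rule named the 12 largest called increases and the 12 largest called decreases with the same sign in the 5 same-numbered pairs and a mean of at least 50 CPM in the higher group, the 8 genes that gained and the 8 that lost most CPM, and members of the lists, and a few of these genes are not reported here. The labels put the replicate number under a batch tag, which is where a pairing of M1 and M0 libraries comes from; deviations from the group means of same-numbered TRα1PV M1 and M0 libraries correlated at -0.085 to 0.210, with 2 of 5 pairs above 0.1. The alternatives were other size factors, total counts only, no filter, DESeq2 1.42.0, limma-voom (limma 3.58.1), the replicate block, only the libraries of the groups compared, and each library left out in turn. The procedure was tested on simulated data in which few genes changed, which does not test the scaling where most genes change. Promoters are the RefSeq GRCm38.p6 sequences, matched by symbol; no coordinates were converted to GRCm39. The labels call the libraries of a group biological replicates without naming the animals, so p-values measure the spread between these samples.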

Additional observations from a re-analysis of the deposited data

Results flagged for a closer look

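Within the 5 libraries of a group, 1 library lay far from the other 4 on the log2 scale, with a gap above Dixon's 95% critical value, in 28 of 579 groups of 5 examined (4.84%), and chance gives about 1 in 20. TRα1PV M1 replicate 5 was the one that stood highest in 11 of them. It was highest for Il6 (27.6 CPM), Ptgs2 (3475.9 CPM), Ccnd2 (103.8 CPM) and Cd83 (69.5 CPM). It was also highest for Acadl (251.7 CPM), C1qa (55.8 CPM), Cxcr4 (10.8 CPM), Cycs (199.3 CPM), Dck (218.7 CPM), Slc9a9 (7.50 CPM) and Zfp36l1 (40.9 CPM). The same library was lowest for Cebpa (28.3 CPM) and Hadh (7.22 CPM). TRα1PV M1 replicate 4 was lowest for Arg1 (10.4 CPM), Fh1 (15.3 CPM), Myd88 (161.8 CPM) and Pf4 (59.8 CPM), and replicate 1 was highest for Pecam1 (41.6 CPM). Among the M0 libraries, replicate 4 was highest for Atf4 (94.8 CPM) and lowest for Cx3cr1 (3.36 CPM), Scd2 (9.73 CPM) and Tnfsf13b (1.15 CPM). M0 replicate 5 was lowest for Ctsc (650.5 CPM), Gbp2b (0.0832 CPM) and Klf4 (3.74 CPM), and M0 replicate 2 was highest for Tlr2 (153.8 CPM) and lowest for Ly96 (15.6 CPM). M0 replicate 1 had the most genes at 1 CPM or more, counted without TMM factors (12271).

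The response to LPS and interferon-γ differed between TRα1PV and WT, at an adjusted p under 0.05 in edgeR's quasi-likelihood test over all 15686 genes, in 120 of the 306 genes named, 59 above WT and 61 below it, against 26.6% of all genes (13.3% in each direction). The genes were named with earlier results of these data known, and some because their p for this same difference was among the smallest. The higher share among the named genes is therefore partly set by how they were chosen and is no result. The values that follow are the log2 fold change in TRα1PV minus that in WT. Among the genes that interferons induce, the response was below WT for Gbp2b (-2.90), Iigp1 (-2.18), Gbp4 (-2.26), Tgtp1 (-1.68), Ifi47 (-1.65), Irgm1 (-1.21), Gbp5 (-1.11) and Gbp2 (-0.95) and for Ifit3b (-2.27), Ifit3 (-1.91), Ifit2 (-1.80), Mx1 (-1.74), Usp18 (-1.72), Rsad2 (-1.59), Oasl1 (-1.50), Cmpk2 (-1.43) and Isg15 (-0.89), while Ifi27 was above it (0.76), as a smaller fall. The transducers Irf7 (-1.47), Stat2 (-0.72), Jak2 (-0.36) and Ifngr1 (-0.30) were below WT and Ifnar1 (0.20) above. In antigen presentation and costimulation, Ciita (-2.20), Cd74 (-0.98), Nlrc5 (-0.73), Tap1 (-0.48), Cd86 (-0.62) and Cd40 (-0.51) were below and Cd38 (1.81) and Vsir (0.67) above.

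In LPS sensing, Ly96 (-1.03), Tlr4 (-0.80), Tlr7 (-0.73) and Irak3 (-0.49) were below WT and Ticam1 (0.62) above. Among NF-κB genes and inhibitors, Bcl3 (0.98), Rela (0.40), Tnfaip3 (0.26), Dusp1 (1.26), Socs3 (1.19) and Zfp36 (0.79) were above and Nfkbiz (-0.77) below, and the factor genes Atf3 (0.67), Junb (0.42), Myc (0.77), Cebpb (0.59) and Spi1 (0.42) were above. Cytokine and chemokine genes lay on either side, with Cxcl10 (-2.34), Il1b (-1.51), Ccl7 (-1.09) and Ccl2 (-0.80) below and Il10 (1.19), Ccl3 (0.71) and Tgfb1 (0.31) above, and the receptor genes Fpr2 (-2.17) and Ccr2 (-1.04) lay below. The inflammasome genes Casp4 (-0.79), Nlrp3 (-0.79) and Casp1 (-0.57) and the necroptosis gene Mlkl (-0.39) were below, and P2rx7 (0.37), Bcl2l1 (0.73) and Bak1 (0.51) above.

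In metabolism, Hk3 (1.07), Slc2a1 (0.98), Slc16a3 (0.95), Tpi1 (0.65), Pfkfb3 (0.55) and Ldha (0.43) of glycolysis were above WT, as were Slc25a1 (0.42), Idh1 (0.41), Cycs (0.33) and Acadl (0.30). Arginine genes differed in sign, with Arg1 (2.33) above and Pts (-0.55) and Slc7a2 (-0.52) below. Of the genes of other paths, Kynu (-1.75), Dck (-1.04), Pnp (-0.83) and Elovl6 (-0.79) were below, and Ptges (0.94), Rxra (0.67), Abcg1 (0.55), Hmox1 (0.42), Fth1 (0.35) and Rac2 (0.29) above. The stress genes Ddit3 (0.45), Atf4 (0.44) and Hspa5 (0.24) and the cyclin gene Ccne1 (0.51) were above.

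Macrophage and surface genes below WT were Klf9 (-1.37), Itga4 (-0.93), Fcgr1 (-0.52), Adgre1 (-0.47) and Klf4 (-0.41), and those above were Csf3r (0.74), Cd68 (0.60) and Fcgr2b (0.54). Of the lysosomal genes, Ctsc (-0.93), Galc (-0.36) and Ctsh (-0.27) were below and Psap (0.56) above. The secreted inhibitors Timp1 (3.82), Serping1 (2.94) and Timp2 (0.47) and the collagen gene Col6a3 (4.59) were above. Of genes tied to interleukin-4, Tgm2 (1.02) and Il4ra (0.70) were above and Il13ra1 (-0.77) below. The remaining genes above were Ighm (4.52), Rin2 (1.62), Cnn3 (1.37), Por (1.04), Trp53inp2 (0.88) and Apobec1 (0.71), and those below were Olfr56 (-2.25), Intu (-1.37), Hacd3 (-1.24) and Abcd2 (-0.53).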

How the results depend on the processing

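The counts of genes higher and lower in TRα1PV M1 than in M0 kept within 1.5 times under 16 of 17 and 17 of 17 alternatives. The exception was scaling to total gene counts without TMM factors, which gave 4042 genes higher, and the same scaling gave 4643 genes beyond 2-fold lower. With each library left out in turn, 6213 to 6308 genes were higher and 6270 to 6357 lower, and 1604 to 3020 had a response above and 1537 to 2973 a response below that of WT, where the highest counts were those without WT M0 replicate 2. Under the 27 alternatives for that difference, 18 of the 19 GTPases, 32 to 34 of the 39 type I interferon genes and 3 to 6 of the 13 class II genes were below WT, and 10 to 18 of the 28 glycolytic and 10 to 18 of the 35 lysosomal genes above it. Of the 306 genes named, 294 kept their direction and their side of the threshold. Adgre1 turned to -0.24 with total counts only and lost its call in 3 more alternatives. Cd14 turned to -0.44 with total counts only, to -0.021 in limma-voom, and ran over -0.241 to 0.202 with single libraries left out (-0.241 without M1 replicate 1). Total counts only ended the calls of Ciita, Csf3r and Cybb and made those of Cd68, Il1b, Ly96, Thra and mt-Co1. Relative to the median of all genes, 43 of 51 list medians stayed within the replicate spread. Fitting only the libraries compared moved those of CC chemokines to 4.34, tryptophan and NAD genes to 0.44, scavenger receptors to -0.91, dendritic cell markers to 2.06 and eosinophil markers to -2.05, and turned that of stromal markers to 2.68 (-0.52 in the full fit), where fewer members pass the filter. Leaving out single libraries gave 0.64 to 0.81 for the arginine list and -0.64 to -0.14 for the metalloproteinases; the cause of these shifts was not tested.

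With the replicate number as a block, 6308 genes were higher and 6440 lower in M1 than in M0, and Thra passed the threshold (-0.19, adjusted p = 0.0295); limma-voom, the fit of the compared libraries alone, and leaving out M0 replicate 4 or M1 replicate 1 also took it past. The block changed no other call among the genes named. Of the 5 M1 libraries, 1 correlated best with its own number among the M0 libraries. At these depths, genes with few reads in 1 group give ratios with wide counting intervals, as for Il33 and Ido1.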

Other observations

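Other parts of metabolism held both directions in TRα1PV M1 against TRα1PV M0. Of the genes that burn fatty acids, 6 rose and 10 fell of 20 tested, with a median log2 fold change of -0.21, and 3 rose and 16 fell with scaling to total counts alone. Hadh, a dehydrogenase of β-oxidation, stood at 9.81 ± 1.47 CPM in M1 and 41.4 ± 0.960 CPM in M0 (-2.08 ± 0.07), and Cpt1a, which admits fatty acids to mitochondria, fell by 1.12 ± 0.07, while the carrier gene Slc25a20 (1.25 ± 0.09) and the dehydrogenase gene Acadl (1.42 ± 0.06) rose. Of the genes of cholesterol and fatty acid synthesis, 12 rose and 8 fell of 27 tested (28 in the list), with a median log2 fold change of -0.03, though 10 rose and 15 fell with scaling to total counts alone. Elovl6, which lengthens fatty acids, fell by 2.84 ± 0.20. In the pentose phosphate path and nucleotide salvage, 8 rose and 5 fell of 15 tested (17 in the list), with a median log2 fold change of 0.31, though 6 rose and 7 fell with scaling to total counts alone. Cmpk2, a mitochondrial nucleotide kinase that interferons induce, had 1537, 1489, 1374, 1440.5 and 1726 CPM in the M1 libraries, against 72.8, 99.95, 119, 123 and 59.1 CPM in the M0 libraries (4.00 ± 0.21). The M1 values all lay above the M0 values. The salvage genes Pnp (2.29 ± 0.09) and Dck (1.98 ± 0.11) rose with Upp1, whereas the pentose phosphate gene Tkt fell by 0.38 ± 0.09.

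Most genes of the oxidative burst rose. Of the NADPH oxidase genes, 6 rose and 2 fell of 8 tested (11 in the list), with a median log2 fold change of 0.83. Cybb, the catalytic subunit, stood at 2064 ± 209 CPM in M1 and 1353 ± 79.2 CPM in M0 (0.61 ± 0.09; 0.10 with an adjusted p of 0.242 on scaling to total counts alone), and Rac2, its regulatory GTPase, rose by 1.98 ± 0.08. Of the integrins and adhesion molecules, 13 rose and 6 fell of 21 tested, with a median log2 fold change of 0.56, and 9 rose and 8 fell with scaling to total counts alone. Icam1, which holds leukocytes to the vessel wall, had 488, 376, 439, 401 and 565 CPM in the M1 libraries, against 75, 81.5, 79.3, 74.4 and 64.9 CPM in the M0 libraries (2.60 ± 0.12). No M0 library reached the lowest M1 library. Itgb5, an integrin chain, fell by 2.71 ± 0.12. The classical complement genes C1qa (-2.32 ± 0.31), C1qb (-0.97 ± 0.15) and C1qc (-1.19 ± 0.18), which code for the chains of C1q, fell, and C1ra, the gene of a protease that binds C1q, rose by 2.27 ± 0.13.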
